A study of Homo sapiens with 72 samples.

Results

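The FOS and JUN family comprised 7 of the 19324 protein-coding genes in the deposited count table, chosen by gene symbol: FOS, FOSB, FOSL1, FOSL2, JUN, JUNB and JUND. All 7 passed the filter on low counts. The libraries were made from polyadenylated RNA of HEK293 Flp-In T-REx cells, an adenovirus-transformed human embryonic kidney line that carries a recombination site for transgenes. The 4 lines were the unedited parent (WT), 1 knockout line labelled CSB_KO, and 2 labelled STK19_KO1 and STK19_KO2. CSB, encoded by ERCC6, recognises RNA polymerase II stalled at a DNA lesion, and STK19 acts in the same repair pathway. Each line had 6 groups of 3 libraries, 72 libraries in all: untreated cells (0 h), irradiated cells at 3 h, and irradiated cells kept until 4 h or 20 h with DMSO, the solvent, or with VE-821 at 3 µM (ATRi), which inhibits the DNA damage checkpoint kinase ATR. Inhibitor or solvent was added 3 h after ultraviolet (UV) irradiation, and the labels leave unsettled whether the 4 h and 20 h clocks started at irradiation or at that addition. The design text names WT alone as irradiated and the sample labels do not mark irradiation library by library, so that the edited lines were irradiated is read here from the groups they share with WT. The labels give no UV dose, and unirradiated cells at later times were not analysed here, so UV cannot be told apart from time in culture in any change against 0 h. Solvent is a further difference from 0 h in the 4 h and 20 h groups, though not in the 3 h groups. From 3 h to 4 h in DMSO, time and solvent change together and cannot be told apart. WT is the only unedited line and CSB_KO is a single line, so a knockout and a trait of the line that carries it cannot be told apart. The labels number 3 replicates in each group without saying that they were separate cultures, so p-values measure the spread between these libraries, which may be technical.

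The proteins of this family carry a basic region that contacts DNA and a leucine zipper that joins them in pairs. FOS proteins pair only with partners such as JUN proteins, whereas JUN proteins also pair with themselves, and the pairs form the transcription factor AP-1. FOS, FOSB, JUN and JUNB are textbook immediate early genes: growth factors and stress kinases switch on their existing promoters without new protein synthesis, and their mRNAs decay within minutes to hours. UV light is a classic stimulus of JUN, through the stress kinases JNK and p38. FOSL1 and FOSL2 (the proteins FRA-1 and FRA-2) lack the strong activation domain of FOS and usually follow it in time. JUND is expressed broadly in resting cells, and JUNB and JUND can oppose JUN on shared targets.

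All 7 genes are compact, and in the table their spans ranged from 1.83 kb for JUNB to 24.9 kb for FOSL2, which is longer than or equal to 42.2% of the tested genes. FOS (ENSG00000170345) lies on chromosome 14 (GRCh38, 75278826 to 75282230, plus strand). FOSB (ENSG00000125740) lies on chromosome 19, 45467995 to 45475179, plus strand. FOSL1 (ENSG00000175592) lies on chromosome 11, 65892049 to 65900573, minus strand. FOSL2 (ENSG00000075426) lies on chromosome 2, 28392448 to 28417317, plus strand. JUN (ENSG00000177606) is a gene of 1 exon in the annotation GENCODE 29 and lies on chromosome 1, 58776845 to 58784048 in the table, minus strand. JUNB (ENSG00000171223), also of 1 exon, lies on chromosome 19, 12791486 to 12793315, plus strand. JUND (ENSG00000130522) lies on chromosome 19, 18279694 to 18281622, minus strand.

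Promoter sequences are shown because several of the genes moved together and immediate early genes are known for short, ready-made promoters. RefSeq promoters (GRCh38.p14) were matched by symbol for 6 of the 7 genes, all but FOSL1. Each line gives the 120 bases before the RefSeq start, 5′ to 3′ on the strand of the gene, after the coordinates of the window. Capitals mark matches to the motifs searched on both strands: the core of the cyclic AMP response element (TGACG), the JUN site TGACATCA, the CCAAT box, the TATA box (TATAA) and the site of MEF2 factors.
FOS chr14 (plus), chr14:75278708-75278827: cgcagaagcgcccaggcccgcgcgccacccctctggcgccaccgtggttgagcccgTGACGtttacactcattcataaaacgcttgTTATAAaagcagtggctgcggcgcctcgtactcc
FOSB chr19 (plus), chr19:45467876-45467995: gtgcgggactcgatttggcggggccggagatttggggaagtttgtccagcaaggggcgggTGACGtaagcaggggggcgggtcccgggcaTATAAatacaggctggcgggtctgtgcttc
FOSL2 chr2 (plus), chr2:28392738-28392857: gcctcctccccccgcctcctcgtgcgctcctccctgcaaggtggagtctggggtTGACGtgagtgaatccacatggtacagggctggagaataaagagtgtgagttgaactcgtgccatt
JUN chr1 (minus), chr1:58784048-58784167: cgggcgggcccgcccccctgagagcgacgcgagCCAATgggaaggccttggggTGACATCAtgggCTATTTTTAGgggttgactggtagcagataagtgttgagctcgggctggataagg
JUNB chr19 (plus), chr19:12791366-12791485: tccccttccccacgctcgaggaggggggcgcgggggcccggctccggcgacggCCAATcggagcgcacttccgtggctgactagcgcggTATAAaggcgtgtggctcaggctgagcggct
JUND chr19 (minus), chr19:18281623-18281742: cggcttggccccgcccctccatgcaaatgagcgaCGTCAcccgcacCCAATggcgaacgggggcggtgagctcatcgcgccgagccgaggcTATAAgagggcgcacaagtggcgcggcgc

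The FOS and FOSB promoters carried the core TGACG at nearly the same place, from -64 to -60 in FOS and from -60 to -56 in FOSB, with TATAA beginning at -33 and -30. FOSL2 held TGACG from -66 to -62 and no TATAA in the window. In JUN the related site TGACATCA ran from -67 to -60, with CCAAT before it (-87 to -83) and the MEF2 site after it (-55 to -46). JUNB had CCAAT at -67 to -63 and TATAA at -31 to -27, and JUND had the reverse complement of TGACG at -86 to -82, CCAAT at -74 to -70 and TATAA at -29 to -25. Outside the printed windows, JUND held the full element TGACGTCA at -200 to -193, and FOSL2 held the AP-1 site TGANTCA as TGACTCA 5 to 11 bases past its start. The core TGACG also occurred in JUNB at -137 to -133 and in JUN at -123 to -119, across the edge of its window. Its reverse complement lay in FOSL2 at -201 to -197. The element TGACGTCA contains the core TGACG, and the TATAA match of FOS overlaps its reverse complement, hence the capitals TTATAA. Of 35116 RefSeq promoters, 13.3% held TGACG, 10.2% TATAA, 20.4% CCAAT, 1.79% TGACATCA and 1.06% the MEF2 site in the last 120 bases before the start. No match to the CArG box, the element bound by the serum response factor SRF, was found in the full windows of these genes, from 250 bases before to 50 after the start. Only 1.29% of the 35116 promoters held one in that window, so its absence does not set these genes apart. Sequence farther upstream was not searched, so a CArG box there would not be seen. The JUN and FOSL2 windows, and part of the FOS window, lie inside the gene spans of GENCODE 29, whose starts differ from those of RefSeq. A match describes letters only, and factor binding was not measured.

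The libraries held between 36.5 M and 212.9 M counts (M stands for mega), with a median of 56.3 M. Levels are CPM (the count as a part per M of the library total, normalised with TMM factors), given as mean ± SD with n = 3, and changes are log2 fold changes ± standard error. Each change was tested in edgeR by quasi-likelihood, with p-values adjusted by the Benjamini-Hochberg method over 15470 tested genes, and called at an adjusted p under 0.05. Levels are shares of the polyadenylated RNA of a culture, so fewer cells expressing a gene and less RNA per cell cannot be told apart. In 5 libraries the counts differed from both other libraries of the group by a chi-square of over 20 per gene: the first WT replicate of the 0 h, 3 h and 4 h DMSO groups, and in STK19_KO1 the third replicate of the 3 h group and the first of the 4 h ATRi group. ERCC6 stood at 6.97 ± 0.611 CPM in CSB_KO and 23.5 ± 0.473 CPM in WT at 0 h, whereas STK19, at 19.0 ± 1.07 CPM in WT and 17.5 ± 0.587 and 17.1 ± 0.862 CPM in its knockouts, was not called different (edgeR, adjusted p = 0.187 and 0.0882), so RNA did not check the STK19 labels. Of 8 neural and embryonic kidney genes known in HEK293 cells, 7 had a median of at least 1 CPM, and all markers of blood, squamous epithelium and hepatocytes stayed under 1 CPM in every library. Of 5 fibroblast markers, 1 (COL1A1) had a median of at least 1 CPM, and the list summed to 4.37 to 22.5 CPM.

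Without irradiation, FOS-family transcripts already set the edited lines apart from WT, most of all in FOSL1. FOSL1 read 9.36, 11.5 and 11.8 CPM in the 3 WT libraries, and 4.59, 4.57 and 5.04 in those of CSB_KO. STK19_KO1 read 4.39, 4.14 and 4.18 CPM, and STK19_KO2 1.07, 1.58 and 1.39 CPM. Every WT library lay above every library of the edited lines, and STK19_KO2 lay below the other two edited lines. The log2 differences from WT were -1.21 ± 0.10, -1.36 ± 0.11 and -3.01 ± 0.12 (edgeR, adjusted p = 7.19e-15, 1.53e-16 and 3.03e-29). FOSB moved the other way, from 1.97 ± 0.119 CPM in WT to 2.75 ± 0.313, 4.29 ± 0.381 and 2.63 ± 0.0758 CPM, and rose in all 3 edited lines by 0.45, 1.11 and 0.41 on the log2 scale (edgeR, adjusted p = 0.000491, 1.73e-13 and 0.00124). The gene ERCC1, which overlaps FOSB on the opposite strand, was also called higher in the same 3 lines, by 0.38, 0.66 and 0.61. A part of ERCC1 reads in these FOSB differences was not tested. FOS was lower in both STK19 lines (-0.69 ± 0.09 and -0.83 ± 0.09) and, by less, in CSB_KO (-0.24 ± 0.08, edgeR adjusted p = 0.0183). The CSB_KO call for FOS was lost without its replicate 1 (log2 -0.11, adjusted p = 0.311) or its replicate 2 (adjusted p = 0.0568), and grew to -0.37 without its replicate 3.

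Of the STK19 lines, 1 alone was called higher in JUN and JUNB. JUN stood at 253 ± 28.3 CPM in WT, 280 ± 9.81 in CSB_KO and 265 ± 12.6 in STK19_KO2, and only STK19_KO1 was called higher, at 407 ± 10.9 CPM (0.68 ± 0.08, edgeR adjusted p = 3.13e-11). JUNB was likewise called higher in STK19_KO1 alone (25.98 ± 2.15 against 15.2 ± 2.74 CPM; 0.77 ± 0.12, adjusted p = 8.95e-08). The difference between those lines was not tested. FOSL2 was higher in both STK19 lines (0.40 ± 0.07 and 0.40 ± 0.07) and lower in CSB_KO by a small margin (-0.19 ± 0.07, adjusted p = 0.0401), a call lost without any of 5 single libraries (adjusted p = 0.0582 to 0.173), namely every CSB_KO replicate and WT replicates 2 and 3. JUND read 65.3, 109 and 103 CPM in WT, and the first of these is the library that stood apart. Its decrease in CSB_KO (-0.35 ± 0.13, adjusted p = 0.0227) was -0.55 (adjusted p = 0.000317) without that library, and lost its call without WT replicate 2 (-0.22, adjusted p = 0.22), WT replicate 3 (adjusted p = 0.141) or CSB_KO replicate 1 (adjusted p = 0.0859). JUND was also lower in STK19_KO2 (-0.47 ± 0.13, adjusted p = 0.00159). In all, 1 gene was higher and 4 lower in CSB_KO, against 19.1% and 15.7% of tested genes. In STK19_KO1, 4 were higher and 2 lower, against 29.5% and 19.2%, and in STK19_KO2, 2 were higher and 3 lower, against 26.6% and 20.7%. With upper quartile scaling the shares over all genes were 21% and 29.2% in STK19_KO1, and 22% and 26% in STK19_KO2. With scaling by library size they were 23.2% and 25.5% in STK19_KO1.

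**Figure D1:**
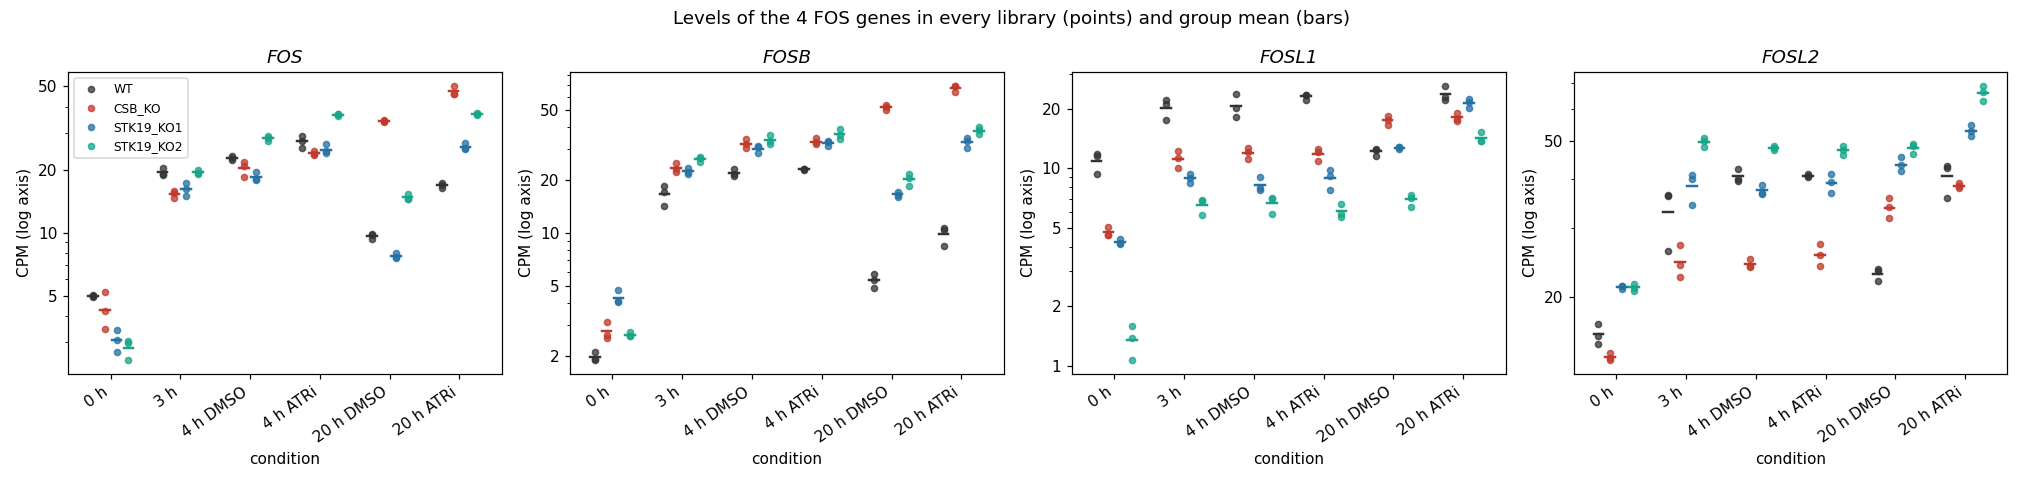
Levels of FOS, FOSB, FOSL1 and FOSL2 in CPM (log axis) by condition, with a point per library, a bar at the mean of 3 libraries and a colour per line. FOS and FOSB climb in every line by 3 h and 4 h, and at 20 h in DMSO the CSB_KO libraries (FOS 33.7 to 34.7 CPM, FOSB 50.2 to 53.6 CPM) lie above those of the other lines.

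FOS and FOSB gave the largest early responses of the family in every line. FOS, whose protein forms the prototype AP-1 pair with JUN, read 5.00, 5.06 and 4.93 CPM at 0 h in WT and 19.1, 20.3 and 18.8 CPM at 3 h. In CSB_KO it went from 3.45, 4.21 and 5.22 to 15.4, 14.6 and 15.8 CPM. In STK19_KO1 it went from 2.69, 3.06 and 3.43 to 14.9, 16.1 and 17.2 CPM, and in STK19_KO2 from 3.05, 2.96 and 2.46 to 19.1, 19.9 and 19.4 CPM. No library at 3 h overlapped any at 0 h of its line. The increases were 1.96 ± 0.08, 1.85 ± 0.08, 2.37 ± 0.08 and 2.79 ± 0.08 on the log2 scale in WT, CSB_KO, STK19_KO1 and STK19_KO2 (edgeR, adjusted p = 3.14e-30, 4.69e-29, 2.94e-32 and 1.71e-36). The size of the increase was larger in the STK19 lines, taken as the mean of both, than in WT by 0.63 ± 0.10 (edgeR, adjusted p = 1.73e-06).

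FOSB, a close paralogue of FOS with slower turnover in its truncated form, started from the lowest level of the family relative to its later values. It read 1.89, 1.91 and 2.11 CPM at 0 h in WT and 14.3, 17.2 and 18.6 CPM at 3 h, where replicate 1, which stands apart, was lowest. The increase was 8.43-fold in WT, 8.67-fold in CSB_KO, 5.28-fold in STK19_KO1 and 10.03-fold in STK19_KO2 (log2 3.08 ± 0.09, 3.12 ± 0.09, 2.3995 ± 0.09 and 3.33 ± 0.09; edgeR, adjusted p = 1.79e-35, 2.84e-37, 4.85e-32 and 1.85e-38). Both genes were higher at 4 h in DMSO than at 3 h in most lines, a step in which time and solvent change together. FOSB rose further in all 4, by 0.40, 0.46, 0.42 and 0.36, and FOS in WT, CSB_KO and STK19_KO2, by 0.23, 0.41 and 0.54. The FOS step in WT lost its call without WT replicate 1 at 3 h (adjusted p = 0.0711) or WT replicate 3 at 4 h (adjusted p = 0.0725). FOSB overlaps the gene ERCC1 on the opposite strand, with 0 shared exonic bases, and ERCC1 changed by 0.45 at 3 h in WT. The kit keeps strand, but no source used here gives the strand setting of the counting, and a part of ERCC1 reads in the FOSB count was not tested.

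FOSL1 and FOSL2 rose as well, by less. FOSL1, known as a late and stable FOS protein, reached 20.2 ± 2.50 CPM in WT, 11.1 ± 1.12 in CSB_KO, and 8.89 ± 0.464 and 6.51 ± 0.644 in the STK19 lines 1 and 2 at 3 h. The order of the lines at 0 h was therefore kept, and the log2 increases were 0.89 ± 0.10, 1.24 ± 0.10, 1.07 ± 0.11 and 2.27 ± 0.12. FOSL2, which like FOSL1 lacks the strong activation domain of FOS, read 15.3, 17.1 and 16.01 CPM at 0 h and 26.2, 36.3 and 36.4 CPM at 3 h in WT. Its log2 increases at 3 h were 1.03 ± 0.07, 0.80 ± 0.07, 0.85 ± 0.07 and 1.23 ± 0.07. Between 3 h and 4 h in DMSO neither gene moved beyond the test in the edited lines. In WT, FOSL2 rose by 0.30 ± 0.07 (adjusted p = 0.00162), and without the low WT replicate 1 at 3 h the step was 0.16 (adjusted p = 0.123).

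The JUN genes changed less at 3 h, and here the lines parted. JUN, the main partner of the FOS proteins, read 220, 269 and 270 CPM at 0 h and 240, 349 and 350 CPM at 3 h in WT, so that the ranges overlapped through replicate 1 at 3 h. Replicate 1, which stands apart at both times, was the lowest at both, and JUN was higher at 3 h in all 3 same-numbered pairs of WT libraries. Deviations within those pairs correlated across genes at 0.625 to 0.797, but only 1 of the 3 libraries matched best with its own number. The labels do not say what a number marks, so the pairs cannot settle the overlap. In STK19_KO2 JUN read 251, 269 and 275 and then 606, 615 and 628 CPM, with a wide gap. The log2 increases were 0.31 ± 0.08 for WT, 0.51 ± 0.08 for CSB_KO, 0.22 ± 0.08 for STK19_KO1 and 1.22 ± 0.08 for STK19_KO2 (edgeR, adjusted p = 0.000422, 5.99e-08, 0.0104 and 7.77e-21). The WT increase was 0.30 with the replicate number as a block and 0.37 without replicate 1 in every group, both past the threshold. Without WT replicate 1 at 3 h only it was 0.46 (adjusted p = 1.09e-08), and with scaling by library size alone it was 0.11 (adjusted p = 0.257). In STK19_KO1 the call was lost with scaling by library size (0.16, adjusted p = 0.0745). At 4 h in DMSO, JUN was higher than at 0 h in all 4 lines, by 0.67, 0.82, 0.43 and 1.64. JUNB, which can restrain JUN on shared targets, rose at 3 h in WT (0.37 ± 0.12, adjusted p = 0.00404), CSB_KO (0.59 ± 0.11) and STK19_KO2 (0.87 ± 0.11). In STK19_KO1 it read 23.5, 27.6 and 26.8 CPM at 0 h and 18.99, 24.01 and 28.1 CPM at 3 h, overlapping ranges with a change of -0.13 ± 0.11 (adjusted p = 0.325), or -0.26 (adjusted p = 0.00779) without the libraries that stand apart. The WT call of JUNB was lost without WT replicate 1 at 0 h (0.24, adjusted p = 0.0874), without WT replicate 2 at 3 h (adjusted p = 0.0528) or replicate 3 at 3 h (adjusted p = 0.0646), and with scaling by library size (0.17, adjusted p = 0.195), which also ended the JUNB call at 4 h in WT (0.44, then 0.24 with adjusted p = 0.0661). JUND was called at 3 h in STK19_KO2 (66.8 ± 5.72 to 124 ± 7.36 CPM; 0.89 ± 0.13, adjusted p = 1.27e-08), and its change in WT was 0.00 ± 0.12. In STK19_KO1 JUND gave 0.22 ± 0.13 (adjusted p = 0.127), and was called with upper quartile factors (0.34, adjusted p = 0.017) and with only the lines compared in the fit (0.24, adjusted p = 0.0412). In CSB_KO it gave 0.18 ± 0.13 (adjusted p = 0.229), and 0.17 (adjusted p = 0.0372) without the libraries that stand apart. At 4 h in DMSO it was also higher than at 0 h in CSB_KO (0.34 ± 0.13, adjusted p = 0.0159) and STK19_KO1 (0.32 ± 0.13, adjusted p = 0.0267). Those calls were lost without CSB_KO replicate 1 at 0 h (adjusted p = 0.0623), and without STK19_KO1 replicate 1 at 0 h (adjusted p = 0.145) or replicates 2 or 3 at 4 h (adjusted p = 0.0904 and 0.0998). JUN rose between 3 h and 4 h in WT (0.37 ± 0.08), CSB_KO (0.31 ± 0.08) and STK19_KO2 (0.42 ± 0.08). The WT step was 0.21 (adjusted p = 0.041) without replicate 1 at 3 h, and the CSB_KO call was lost without any of 5 single libraries (adjusted p = 0.0576 to 0.14), all but replicate 1 at 4 h.

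Counted over the family, 6 of 7 genes rose at 3 h in both WT and CSB_KO, 5 in STK19_KO1 and 7 in STK19_KO2, and none was called lower. In the order WT, CSB_KO, STK19_KO1 and STK19_KO2, the shares of all tested genes called higher were 33.6%, 32%, 29.9% and 29.1%. The median log2 change of the 7 genes was 0.89, 0.80, 0.85 and 1.23, against 0.06, 0.06, 0.03 and 0.05 over all tested genes. Short genes as a class were higher at this time: of 6535 tested genes with a span up to that of FOSL2, 52.9%, 50.7%, 52.7% and 52.2% were called higher. The part of gene length in the members' rise was not tested. FOSB and FOS ranked at the 98.8th and 97.2nd percentile of log2 change among tested genes in WT. FOSL2 and FOSL1 followed at percentiles 92.8 and 91.4, and JUNB, JUN and JUND ranked lower, at 73.0, 68.3 and 46.2. With scaling by library size 19.9% of tested genes were called higher in WT and 22.6% in CSB_KO, and with upper quartile factors 38.5% in STK19_KO1. At 4 h in DMSO against 0 h the counts were 6, 7, 6 and 7 genes higher, against 35%, 33.6%, 27.9% and 31.6% of tested genes. Scaling by library size gave 23.1% in WT and 24.6% in CSB_KO at that time, and upper quartile factors 37.1% in STK19_KO1. From 3 h to 4 h in DMSO, 4, 3, 1 and 3 genes rose, against 8.35%, 0.705%, 0.847% and 0.853%. Scaling by library size gave 1.48% in STK19_KO1 and 0.64% in STK19_KO2 there. JUND in STK19_KO2 gave 0.44 ± 0.12 (adjusted p = 0.056) at this step, and 0.44 (adjusted p = 0.00489) with the replicate number as a block. It was also called by DESeq2 (adjusted p = 0.0242) and with upper quartile factors (adjusted p = 0.0491).

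**Figure D2:**
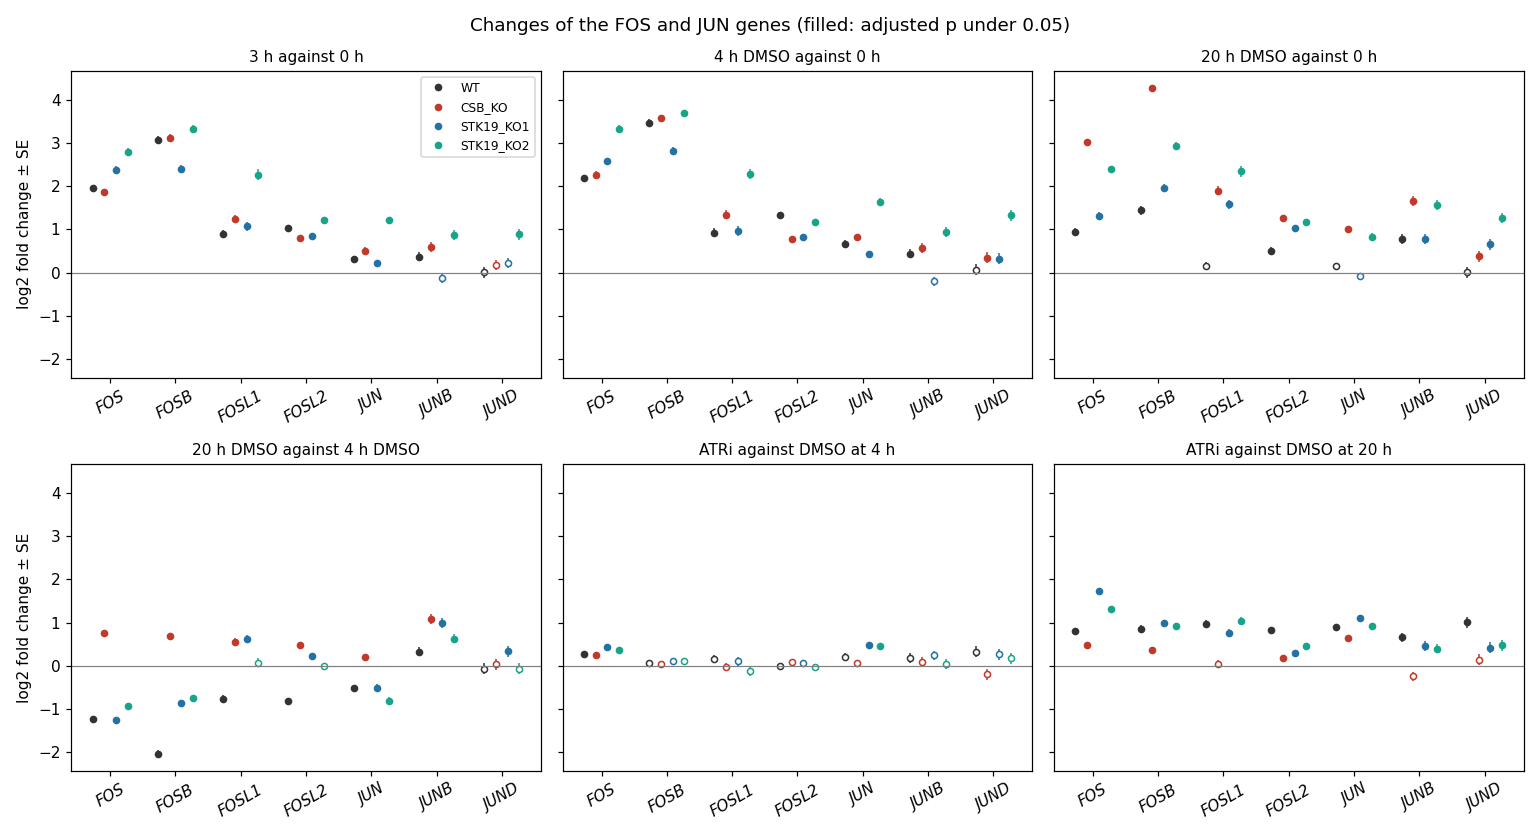
Log2 fold change ± standard error of the 7 genes in 6 comparisons, with a colour per line and filled points for an adjusted p under 0.05. FOS and FOSB stand highest at 3 h and 4 h against 0 h, and from 4 h to 20 h in DMSO the WT values of FOS (-1.24) and FOSB (-2.03) lie below zero while those of CSB_KO (0.75 and 0.69) lie above it.

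At 20 h in DMSO the lines diverged. In WT, FOS had come down to 9.79, 9.89 and 9.31 CPM and FOSB to 4.86, 5.87 and 5.38 CPM, below every WT library at 4 h and above every one at 0 h. In CSB_KO they had climbed further, to 34.1, 33.7 and 34.7 CPM for FOS and 50.2, 52.5 and 53.6 CPM for FOSB. Between 4 h and 20 h in DMSO, FOS fell by 1.24 on the log2 scale in WT, by 1.26 in STK19_KO1 and by 0.94 in STK19_KO2, and rose by 0.75 in CSB_KO (edgeR, adjusted p = 6.46e-23, 1.74e-22, 3.43e-18 and 1.26e-14). FOSB fell by 2.03, 0.87 and 0.74 in the same 3 lines and rose by 0.69 in CSB_KO. Against 0 h, FOSB was 19.2-fold higher in CSB_KO and 2.71-fold higher in WT, and FOS 8.08-fold and 1.93-fold. ERCC1, which overlaps FOSB, changed by 0.37 in CSB_KO and -0.04 in WT against 0 h.

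The late FOS genes followed the same division between WT and CSB_KO. FOSL1 read 11.6, 12.3 and 12.5 CPM in WT, close to its level at 0 h (0.16 ± 0.10, edgeR adjusted p = 0.171), and 16.5, 17.6 and 18.4 CPM in CSB_KO (1.89 ± 0.10, adjusted p = 1.15e-24). In STK19_KO1 FOSL1 also rose between 4 h and 20 h (0.62 ± 0.10), and in STK19_KO2 the change was 0.07 ± 0.10. FOSL2 fell by 0.82 between 4 h and 20 h in WT and rose by 0.47 in CSB_KO and 0.22 in STK19_KO1. It stood at 22.98 ± 0.793 CPM in WT, 33.8 ± 1.91 in CSB_KO, and 43.5 ± 1.80 and 47.9 ± 1.34 in the STK19 lines 1 and 2. The WT libraries lay below those of every edited line.

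JUN was called above its 0 h level at 20 h in DMSO in CSB_KO and STK19_KO2. It read 264, 304 and 277 CPM in WT at 20 h, overlapping 0 h (0.15 ± 0.08, adjusted p = 0.0835). The WT change was called with scaling by library size (0.22, adjusted p = 0.0181), with no filter on low counts (adjusted p = 0.0472), and without WT replicate 2 or 3 at 0 h (adjusted p = 0.0459 and 0.0428). In CSB_KO it read 578, 538 and 579 CPM (1.01 ± 0.08, adjusted p = 3.85e-18). In STK19_KO1 it read 387, 400 and 368 CPM, overlapping its 0 h libraries (-0.08 ± 0.08, adjusted p = 0.356). In STK19_KO2 it read 474, 471 and 467 CPM, well above its 0 h libraries (0.83 ± 0.08, adjusted p = 1.17e-14). The difference between the STK19 lines was not tested. From 4 h to 20 h JUN fell by 0.52 in WT, 0.51 in STK19_KO1 and 0.81 in STK19_KO2. In CSB_KO it rose by 0.20 ± 0.08 (adjusted p = 0.0188), a call lost with scaling by library size (0.02, adjusted p = 0.831) and without CSB_KO replicate 1 at 4 h (0.17, adjusted p = 0.076).

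JUNB was the only member that rose from 4 h to 20 h in all 4 lines, by 0.33, 1.08, 0.99 and 0.63 (adjusted p = 0.00734, 1.02e-12, 2.16e-11 and 1.27e-06). It read 24.2, 27.03 and 26.7 CPM in WT and 48.3, 47.3 and 50.5 CPM in CSB_KO at 20 h. In WT the step was 0.22 (adjusted p = 0.0988) without the library of 4 h that stands apart. HOOK2, on the opposite strand, shares 259 exonic bases with JUNB, 14.2% of its exonic length, and at 20 h against 0 h HOOK2 changed by 0.78, 0.41, 0.53 and 0.22, beside 0.77, 1.66, 0.78 and 1.56 for JUNB. From 4 h to 20 h HOOK2 changed by 0.48, 0.26, 0.43 and -0.08, in WT by more than the 0.33 of JUNB. The part of HOOK2 reads in the JUNB count was not tested. JUND, known for broad expression in resting cells, read 79.3, 102 and 96.1 CPM in WT at 20 h and differed from 0 h by 0.01 ± 0.13 (adjusted p = 0.972), or by -0.19 (adjusted p = 0.0362) without the libraries that stand apart. It rose in CSB_KO by 0.37, in STK19_KO1 by 0.65 and in STK19_KO2 by 1.26, and the CSB_KO call was lost with scaling by library size (0.07, adjusted p = 0.631). Between 4 h and 20 h its rise in STK19_KO1 (0.33 ± 0.12, adjusted p = 0.0163) was lost without replicate 1 at 4 h (0.25, adjusted p = 0.11).

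Against 0 h, 4 of 7 genes were higher at 20 h in DMSO in WT, 7 in both CSB_KO and STK19_KO2, and 6 in STK19_KO1. In the order WT, CSB_KO, STK19_KO1 and STK19_KO2, 30%, 38.3%, 32.1% and 33.8% of all tested genes were higher, or 28.8% in CSB_KO with scaling by library size. Among tested genes with a span up to that of FOSL2 the shares were 39.4%, 61.1%, 48% and 50.3%. Between 4 h and 20 h, 5 members fell and 1 rose in WT, against 35.5% and 34.1% of tested genes, whereas in CSB_KO 6 rose and 0 fell, against 34.6% and 37.2% (edgeR; in CSB_KO no member had a negative change). With scaling by library size the shares were 21.6% lower and 47.2% higher in WT and 27.4% higher and 45.1% lower in CSB_KO. Short genes as a class were split between these lines in the same directions. Among tested genes with a span up to that of FOSL2, 45.6% were lower and 20.5% higher in WT. In CSB_KO 46.7% of them were higher and 21.7% lower. The part of gene length in the members' changes was not tested. In STK19_KO1, 4 rose and 3 fell (32.3% and 33.4%), and in STK19_KO2, 1 rose and 3 fell (31.6% and 34.9%).

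**Figure D3:**
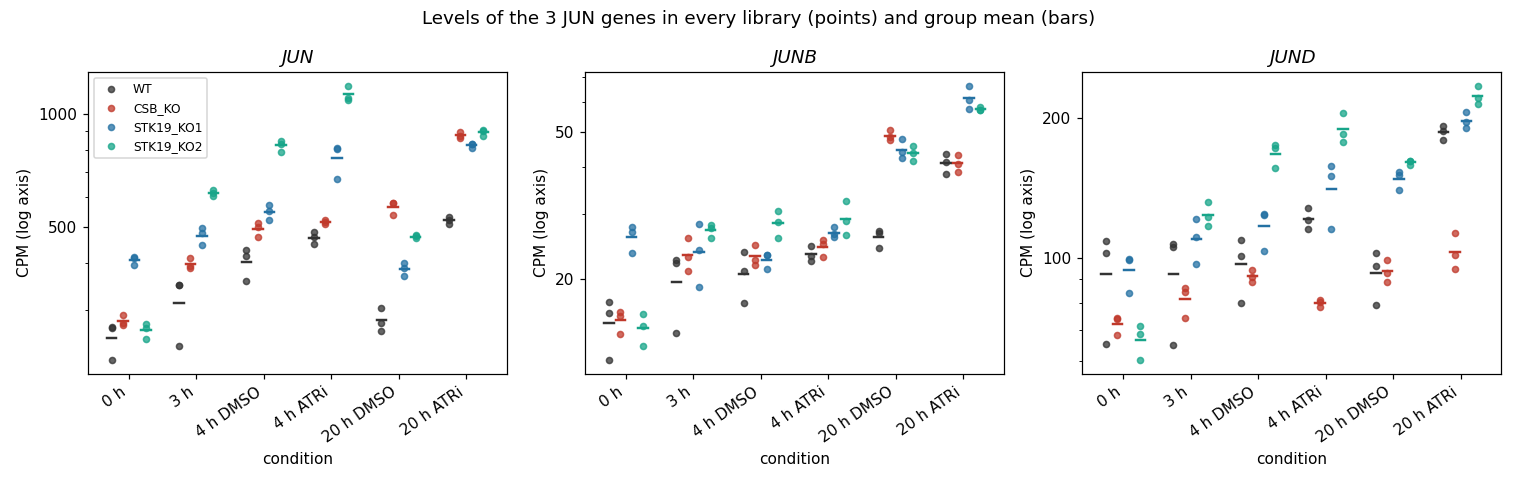
Levels of JUN, JUNB and JUND in CPM (log axis) by condition, with a point per library, a bar at the mean of 3 libraries and a colour per line. At 20 h JUN is higher with ATRi than in DMSO in every line, in WT at 509 to 532 against 264 to 304 CPM, and WT replicate 1 of JUND sits low at 0 h and 3 h (65.3 and 64.9 CPM).

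The differences between lines were tested directly, as the change in an edited line minus the change in WT. These tests share the WT libraries. For the change at 20 h in DMSO against 0 h, CSB_KO exceeded WT in 6 of 7 genes, against 30.9% of tested genes (18.5% with scaling by library size). Among tested genes with a span up to that of FOSL2 the share was 45.8%. The excess was 2.82 ± 0.13 for FOSB, 2.07 ± 0.11 for FOS, 1.74 ± 0.14 for FOSL1, 0.88 ± 0.16 for JUNB, 0.86 ± 0.11 for JUN and 0.75 ± 0.10 for FOSL2 (edgeR, adjusted p from 2.84e-26 to 2.47e-06). With scaling by library size the values of JUN, JUNB and FOSL2 were 0.49, 0.51 and 0.37, still past the threshold. JUND gave 0.37 ± 0.18 (adjusted p = 0.0625), and 0.56 (adjusted p = 0.00233) without WT replicate 1 at 0 h. It was called by DESeq2 (0.44, adjusted p = 0.0194) and with upper quartile factors (0.47, adjusted p = 0.0178). The mean change of the STK19 lines exceeded that of WT in 7 of 7, against 22.8% of tested genes (17% with scaling by library size), most in FOSL1 (1.81 ± 0.13, adjusted p = 1.75e-18) and FOSB (1.01 ± 0.12, adjusted p = 1.68e-10). Among tested genes with a span up to that of FOSL2, 33.1% were higher. A larger change was not always a higher level. FOSL1 stood at 12.7 CPM in STK19_KO1, 6.93 in STK19_KO2 and 12.1 in WT at 20 h in DMSO, from 4.24, 1.34 and 10.9 at 0 h. FOS stood at 7.72, 14.7 and 9.66 CPM at 20 h in that order. For JUN that mean difference was 0.22 ± 0.09 (adjusted p = 0.0391), it joins a line with no called change and one with an increase, and the call was lost with scaling by library size (0.11, adjusted p = 0.342). It was also lost without WT replicate 2 (adjusted p = 0.137) or 3 (adjusted p = 0.146) at 0 h, WT replicate 1 at 20 h (adjusted p = 0.0841), STK19_KO1 replicate 1 at 0 h (adjusted p = 0.058) or STK19_KO1 replicate 2 at 20 h (adjusted p = 0.0606). The JUNB difference (0.40 ± 0.14, adjusted p = 0.0121) was lost with scaling by library size (0.29, adjusted p = 0.0704) and without WT replicate 2 at 0 h (0.30, adjusted p = 0.0808).

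At 3 h no member differed between CSB_KO and WT in its change (edgeR, 0 of 7; 2 at an unadjusted p under 0.05; 0 by DESeq2), against 9.78% of tested genes in either direction (1.48% higher and 8.3% lower, or 2.94% and 4.65% with scaling by library size and 2.71% and 5.79% with upper quartile factors). FOSL1 gave 0.35 ± 0.14 (adjusted p = 0.113), and 0.44 (adjusted p = 0.0314) without WT replicate 1 at 0 h or 0.42 (adjusted p = 0.0427) without WT replicate 2 at 3 h. With the replicate number as a block FOSL1 was called (0.34, adjusted p = 0.0496), where same-numbered libraries at 3 h and 0 h deviated together in WT but not by the same measure in CSB_KO. A second measure, the best match with the own number, gave the reverse, with 3 libraries in CSB_KO and 1 in WT. FOSL2 gave -0.23 ± 0.10 (adjusted p = 0.163), and -0.37 (adjusted p = 0.00319) without WT replicate 1 at 3 h. The STK19 mean exceeded WT at 3 h in 4 of 7, against 10.1% (20.8% with scaling by library size and 14.7% with upper quartile factors): FOS, FOSL1 (0.78 ± 0.13), JUND (0.55 ± 0.15) and JUN (0.41 ± 0.09). The mean joins 2 STK19 lines whose difference was not tested. In STK19_KO1, STK19_KO2 and WT, JUN changed by 0.22, 1.22 and 0.31, and JUND by 0.22 (not called), 0.89 and 0.00. In the same order FOSL1 changed by 1.07, 2.27 and 0.89, and FOS by 2.37, 2.79 and 1.96. Without WT replicate 1 at 3 h the JUN difference was 0.26 (adjusted p = 0.0121), that of JUND was 0.36 (adjusted p = 0.0674), and FOSB gained a call at -0.31 (adjusted p = 0.0337). JUND was also not called without WT replicate 2 at 0 h (adjusted p = 0.0547).

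**Figure D4:**
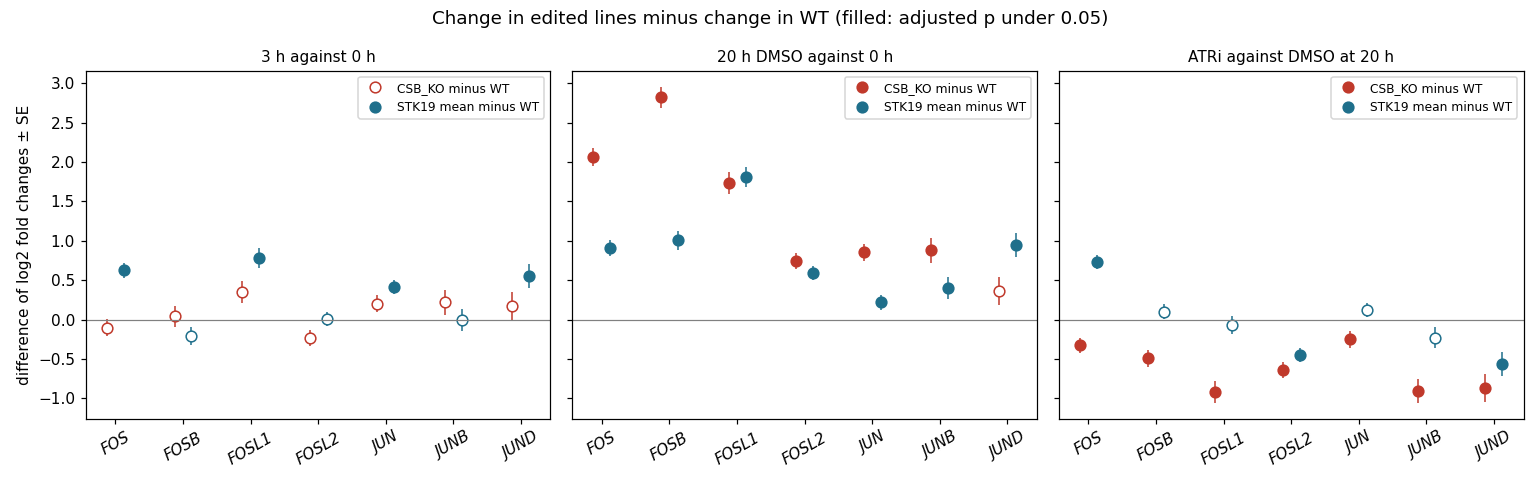
Change in CSB_KO, or mean change in the 2 STK19 lines, minus the change in WT, as a difference of log2 fold changes ± standard error, with filled points for an adjusted p under 0.05. At 20 h in DMSO the CSB_KO differences reach 2.82 for FOSB and 2.07 for FOS, and for ATRi at 20 h all 7 CSB_KO values lie below zero.

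Inhibition of ATR raised FOS at 4 h in every line and JUN in both STK19 lines, and no other member was called. FOS read 25.3, 27.5 and 29 CPM with ATRi and 22.2, 22.7 and 23.3 CPM in DMSO in WT, and in STK19_KO2 36.01, 36.9 and 36.9 against 27.4, 28.9 and 28.4 CPM, with no overlap. The log2 increases were 0.26 ± 0.07, 0.24 ± 0.07, 0.44 ± 0.07 and 0.37 ± 0.07 (edgeR, adjusted p = 0.0176, 0.0373, 3.16e-05 and 0.000961). The WT call was lost when any of 4 single libraries was left out (adjusted p = 0.0649 to 0.161), namely replicates 1 and 2 in DMSO and 2 and 3 with ATRi, and the CSB_KO call when any of 5 was (adjusted p = 0.0623 to 0.318), namely replicates 1 and 3 in DMSO and every replicate with ATRi. JUN rose with ATRi at 4 h in both STK19 lines, by 0.48 ± 0.08 and 0.45 ± 0.08 (adjusted p = 3.19e-05 and 0.000217), while WT gave 0.21 ± 0.08 and CSB_KO 0.06 ± 0.08. The WT value was called with scaling by library size (0.26, adjusted p = 0.0476) and without the libraries that stand apart (0.14, adjusted p = 0.0361). In all 1, 1, 2 and 2 genes rose in WT, CSB_KO, STK19_KO1 and STK19_KO2, against 2.03%, 2.7%, 0.776% and 0.194% of tested genes (4.01% in WT with scaling by library size). No member differed from WT in its response at 4 h, in CSB_KO (0 of 7 by edgeR, 1 at an unadjusted p under 0.05, 0 by DESeq2; 3.2% of tested genes in either direction) or in the STK19 mean (0 of 7, 1 and 0; 0.00646%). Without the libraries that stand apart 1 member was called in each of these 2 comparisons, JUND for CSB_KO (-0.39, adjusted p = 0.0149) and JUN for the STK19 mean (0.38, adjusted p = 3.89e-05).

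At 20 h ATR inhibition raised all 7 genes in WT and in both STK19 lines. JUND read 180, 192 and 188 CPM with ATRi and 79.3, 102 and 96.1 CPM in DMSO in WT, and FOSL1 22.9, 26.1 and 22.2 against 11.6, 12.3 and 12.5 CPM. JUN read 509, 532 and 522 against 264, 304 and 277 CPM. In none of these did the groups overlap, and the WT increases of the 7 genes fell in a narrow band, from 0.66 ± 0.11 for JUNB to 1.01 ± 0.13 for JUND (edgeR, adjusted p from 1.92e-15 for JUN to 6.12e-07 for JUNB). The STK19 lines spread more widely. FOS rose by 1.74 ± 0.07 in STK19_KO1 and 1.33 ± 0.07 in STK19_KO2, from 7.57, 7.61 and 7.99 to 25.4, 26.8 and 25.1 CPM in the first, whereas FOSL2 rose by 0.29 ± 0.07 and 0.47 ± 0.07.

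CSB_KO answered ATRi at 20 h in 4 genes: JUN (0.64 ± 0.08), FOS (0.48 ± 0.07), FOSB (0.37 ± 0.07) and FOSL2 (0.19 ± 0.07, adjusted p = 0.0393). The FOSL2 call was lost without CSB_KO replicate 1 or 2 in DMSO (adjusted p = 0.0613 and 0.189) or replicate 2 or 3 with ATRi (adjusted p = 0.104 and 0.0647). FOSL1 read 17.3, 19.02 and 17.8 CPM with ATRi and 16.5, 17.6 and 18.4 in DMSO, overlapping ranges. JUNB had its lower values with ATRi, 38.98, 40.9 and 43.2 against 48.3, 47.3 and 50.5 CPM, with no overlap but no call (-0.25 ± 0.11, adjusted p = 0.0803; 0.00678 without the libraries that stand apart and 0.00395 with only the lines compared in the fit). The levels CSB_KO reached were the highest of all 24 groups for FOS (47.5 ± 2.55 CPM) and FOSB (67.4 ± 2.90 CPM). Over the family, 7, 4, 7 and 7 genes rose with ATRi at 20 h in WT, CSB_KO, STK19_KO1 and STK19_KO2, against 30.2%, 14.1%, 31.5% and 30.5% of tested genes. In CSB_KO the share was 18.1% with scaling by library size and 19% with upper quartile factors.

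The response to ATRi at 20 h was smaller in CSB_KO than in WT for all 7 genes, against 26.9% of tested genes that were lower in this comparison (18.6% with scaling by library size, 18.4% with upper quartile factors). The differences ran from -0.25 ± 0.11 for JUN (adjusted p = 0.0448) to -0.92 ± 0.13 for FOSL1 (adjusted p = 5.44e-08). Those of FOS (-0.33) and JUN lost their calls with scaling by library size (-0.18 and -0.10) and with upper quartile factors (-0.17 and -0.10), which moved the median of all genes by 0.15 and 0.156, and JUN also when any of 9 single libraries was left out (adjusted p = 0.0518 to 0.135). In the STK19 mean the response exceeded that of WT for FOS (0.73 ± 0.09, adjusted p = 7.24e-10) and fell short of it for JUND (-0.56 ± 0.15) and FOSL2 (-0.45 ± 0.09), 1 gene higher and 2 lower against 20.7% and 20.2% of tested genes (24.7% and 15.4% with scaling by library size).

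When only the lines compared entered the fit, 11 calls were lost and 3 gained. In WT these were JUN and JUNB at 3 h (adjusted p = 0.0824 and 0.0975), FOS, FOSL2 and JUN from 3 h to 4 h (0.0579, 0.106 and 0.0933), JUNB from 4 h to 20 h (0.0617) and FOS with ATRi at 4 h (0.114). In CSB_KO they were FOS with ATRi at 4 h (0.0662), FOSL2 and JUND against WT at 0 h (0.113 and 0.0669), and the difference from WT of JUN with ATRi at 20 h (0.11). The gains were JUNB with ATRi at 20 h in CSB_KO (adjusted p = 0.00395), JUND at 3 h in STK19_KO1 (0.0412), and JUND from 3 h to 4 h in STK19_KO2 (7.31e-05).

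Across the 24 groups FOSB had the widest range of group means, 34.2-fold between WT at 0 h and CSB_KO at 20 h with ATRi, and JUND the narrowest, 3.34-fold. FOSL1 spanned 17.6-fold, from STK19_KO2 at 0 h to WT at 20 h with ATRi, and FOS 16.8-fold. FOSL2, JUN and JUNB spanned 4.69-fold, 4.46-fold and 4.17-fold. With the groups in order of their mean, 10 of the 23 neighbouring pairs of FOS did not overlap in their libraries, 9 of FOSB, 9 of FOSL2, 8 of FOSL1, 6 of JUN, 5 of JUND and 2 of JUNB. Such counts were not made for the other tested genes, so whether they are unusual cannot be told. In the order of FOS the gaps at the top separated CSB_KO at 20 h with ATRi from STK19_KO2 at 20 h with ATRi (37.01 ± 0.374 CPM), and CSB_KO at 20 h in DMSO from STK19_KO2 at 4 h in DMSO (28.2 ± 0.786 CPM).

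Per kilobase of exon in GENCODE 29, JUN was the largest part of the family's transcripts, with 47.1% to 68.7% in the 24 groups. That rank depends on the length of JUN, which is 3540 bases there and spans 7204 bases in the deposited table. With the table span as its length, JUN (253 CPM) came below JUND (92.3 CPM over 1863 exonic bases) per kilobase in WT at 0 h. With GENCODE 29 lengths the JUN share of the length-scaled counts in WT at 0 h was 51.7 ± 3.08%, and the 4 FOS genes together made up 7.19 ± 0.662%. The share of the FOS genes was 14.3 ± 1.68% at 3 h and 8.68 ± 0.580% at 20 h in DMSO in WT. In CSB_KO it was 4.75 ± 0.166% at 0 h, then 9.77 ± 0.292% at 3 h, and finally 12.6 ± 0.432% at 20 h in DMSO. These shares are mean ± SD over 3 libraries with lengths from GENCODE 29, and they moved with the length used. Without length scaling the FOS genes' share was 8.68% in WT at 0 h and 16.3% in CSB_KO at 20 h in DMSO.

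**Figure D5:**
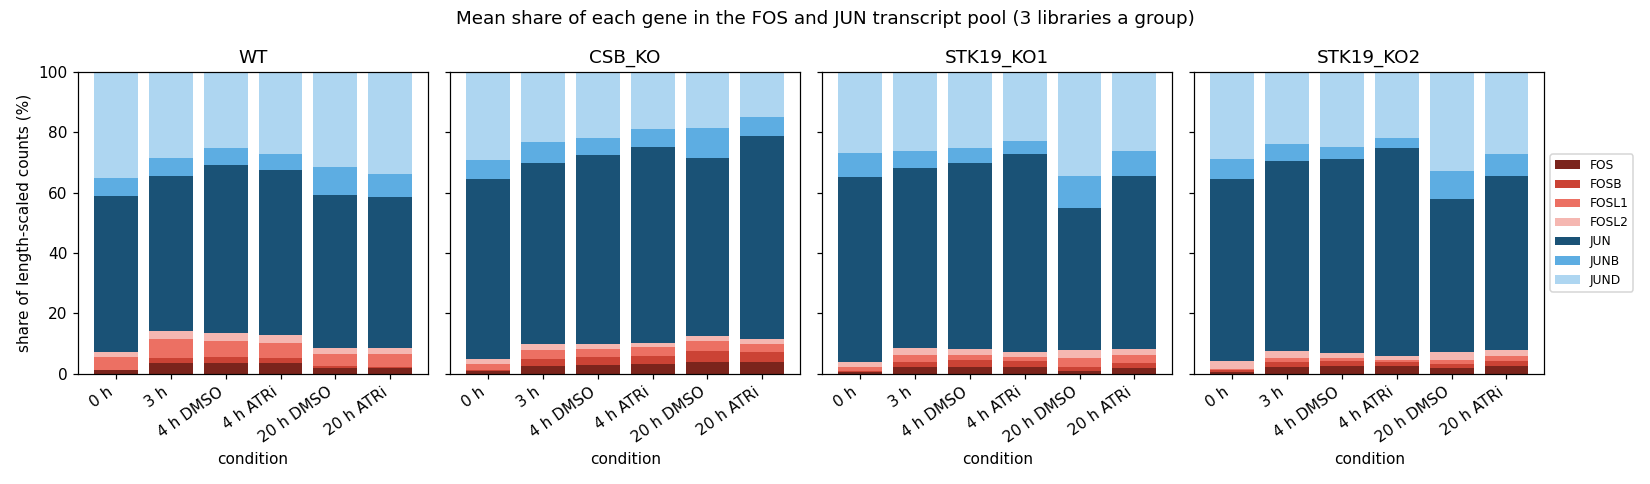
Mean share of each gene in the length-scaled counts of the family (%, stacked to 100, 3 libraries a group) by condition in the 4 lines. JUN is the largest part, and the part of the FOS genes in CSB_KO is 4.75% at 0 h and 12.6% at 20 h in DMSO.

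FOS and FOSB had the most similar patterns within the family, with a Pearson correlation of 0.921 between their mean log2 CPM over the 24 groups, followed by FOSL2 and JUND at 0.835. JUN and FOSL1 were least alike at 0.212. Among 11754 genes with a mean log2 CPM of at least 1, those close to FOS included POU3F1 (0.948) and HEXIM1 (0.947), and those close to FOSB included VASN (0.976) and DYNLL2 (0.97). JUN was followed most closely by GADD45B (0.904), NUDT16L1 (0.9) and VPS11 (0.892). FOSL1 was followed by MEX3B (0.954), SELENOS (0.896) and RWDD2B (0.885), and FOSL2 by ZNF597 (0.932), PNRC1 (0.932) and MEPCE (0.928). For JUNB these were TRAFD1 (0.952), THAP3 (0.951) and NEK2 (0.947), and for JUND DDX20 (0.936), ZNF684 (0.918) and THG1L (0.916). The groups share lines and libraries, so the coefficients describe these 24 means only.

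Genes that act with the family moved in both directions, as did tested genes as a whole. Of 17 tested partners of the bZIP class, which pair with FOS or JUN proteins or bind related sites, 6 rose and 5 fell at 3 h in WT (median log2 change -0.0039 against 0.06 over all tested genes). These counts are near the shares of all tested genes, 33.6% higher and 28.8% lower. ATF3, a stress-induced partner of JUN, rose by 2.19 ± 0.04. The constitutive factors ATF2 and CREB1 fell by 1.07 and 1.61. At 20 h in DMSO 10 rose and 1 fell in WT, against 30% and 25.4% of tested genes. ATF3 was then 1.92 ± 0.04 above 0 h in WT and 3.31 ± 0.04 in CSB_KO. With ATRi at 20 h 8 rose and 5 fell in WT, against 30.2% and 33.7% of tested genes, and ATF3 rose again by 1.99 ± 0.04.

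Of 26 kinases upstream of FOS and JUN, 13 fell and 3 rose at 3 h in WT (median -0.18), against 28.8% and 33.6% of tested genes. MAP3K5 (ASK1) fell by 1.75 and MAP3K1 fell by 1.23. MAP2K3, which activates p38, rose by 0.27 ± 0.06. At 20 h in DMSO 10 fell and 7 rose in WT, and 17 fell and 5 rose in CSB_KO (median -0.60 against -0.01 over all tested genes). Of all tested genes 25.4% fell and 30% rose in WT, and 40.5% fell and 38.3% rose in CSB_KO. Of 9 genes for SRF and its cofactors, 6 fell and 2 rose at 3 h in WT (median -0.51). MRTFA and MRTFB, actin-regulated cofactors of SRF, fell by 2.00 and 1.86, and SRF itself rose by 0.19 ± 0.07 (adjusted p = 0.0148). In WT 4 of these 9 fell at 20 h in DMSO and 0 rose (edgeR).

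Of 16 genes for the turnover of FOS and JUN mRNA and protein, 5 rose and 7 fell at 3 h in WT (median -0.02). ZFP36L1 and ZFP36, whose proteins bind AU-rich elements and speed mRNA decay, rose by 1.34 ± 0.06 and 1.22 ± 0.11. FBXW7 and DET1, parts of ubiquitin ligases that act on JUN, fell by 1.36 and 1.45. ZFP36 stayed high at 20 h in DMSO, by 1.39 ± 0.11 in WT and 2.70 ± 0.10 in CSB_KO. Of 23 tested genes known as AP-1 targets, 10 rose and 2 fell at 3 h in WT (median 0.38), 15 rose and 2 fell at 20 h in DMSO in WT (median 0.44), and 16 rose and 3 fell in CSB_KO (median 0.82). CXCL8, which encodes the chemokine interleukin 8, differed by -0.01 ± 0.33 at 3 h in WT (adjusted p = 0.977) and by 2.84 ± 0.27 at 20 h (adjusted p = 1.07e-13), and ATRi raised it by a further 3.27 ± 0.22. EDN1, for endothelin 1, was 2.92 ± 0.53 above 0 h at 20 h, and CCND1, for cyclin D1, fell by 0.55. With ATRi at 20 h the targets were divided in WT, with 7 higher, among them MMP10 (2.50 ± 0.47), and 10 lower, among them TGFB1, which fell by 1.13. Over all tested genes the shares called higher and lower were 33.6% and 28.8% at 3 h in WT, 30% and 25.4% at 20 h in DMSO in WT, 38.3% and 40.5% in CSB_KO, and 30.2% and 33.7% with ATRi at 20 h in WT.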

How the data were processed

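Polyadenylated RNA from HEK293 cells was sequenced in 72 libraries, 3 in each of 24 groups of line, time and treatment. The authors deposited expected counts per gene, held as whole numbers. Per the submitters' processing notes, the tools included STAR, RSEM and deepTools 3.5.1 with the build GRCh38. The order of steps, the annotation and the strand setting of the counting are not given in the sources used here. Totals ran from 36.5 M to 212.9 M counts per library. The table held 0 columns of other samples, and 572 of its 19324 genes had no symbol.

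Genes were filtered with filterByExpr (minimum count 10, minimum total 15), leaving 15470. A model with a mean per group was fitted to all 72 libraries with edgeR 4.0.16 (R 4.3.3), normalised by the trimmed mean of M values (factors 0.857 to 1.125), with 48 residual degrees of freedom. Contrasts were tested by quasi-likelihood and adjusted by the Benjamini-Hochberg method over all tested genes at 0.05. Standard errors are the log2 fold change divided by the square root of F. Lengths came from GENCODE 29 and promoters from RefSeq (250 bases before to 50 after the start). The family and the gene lists were chosen with earlier results of these data known. All 7 members are named. The rule for other names took each member's 3 most similar genes, and up to 2 genes per list that rose and 2 that fell most in WT at 3 h, at 20 h in DMSO and with ATRi at 20 h. Some genes that it takes are not reported here. Where one of these was named in one comparison, its values in others are also given.

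Alternatives were DESeq2 1.42.0, other scalings, no filter on low counts, a fit to the lines compared only, a replicate block, and leaving out replicates. Leave-one-library-out fits kept the trended dispersion of the full fit and estimated the quasi-likelihood spread again. The procedure was tested on simulated data. Same-numbered libraries deviated together in 6 of 31 pairs of groups (all 3 correlations over 0.1), and over all pairs the correlation ran from -0.292 to 0.811 with a median of 0.113. Those 6 pairs were WT at 3 h and at 4 h in DMSO with 0 h, WT and STK19_KO2 at 4 h in DMSO with 3 h, and STK19_KO1 with ATRi and DMSO at 4 h and at 20 h. The labels number the replicates without saying what a number marks. The lowest chi-square per gene between replicates was 3.64 over 72 pairs, so no library was counted as a duplicate.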

Additional observations from a re-analysis of the deposited data

Results flagged for a closer look

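The following changes differed between an edited line and WT by a test of the difference itself (edgeR, adjusted p under 0.05), given as the difference of log2 fold changes. At 3 h against 0 h the mean of the STK19 lines exceeded WT by 0.63 in FOS, 0.78 in FOSL1, 0.41 in JUN and 0.55 in JUND. In STK19_KO1 alone JUN changed by less than in WT (0.22 against 0.31), and JUND was not called. At 20 h in DMSO against 0 h CSB_KO exceeded WT by 2.07 in FOS, 2.82 in FOSB, 1.74 in FOSL1, 0.75 in FOSL2, 0.86 in JUN and 0.88 in JUNB. In the same comparison the mean of the STK19 lines exceeded WT by 0.91 in FOS, 1.01 in FOSB, 1.81 in FOSL1, 0.59 in FOSL2, 0.22 in JUN, 0.40 in JUNB and 0.95 in JUND. The JUN mean joins a change of -0.08 in STK19_KO1 and 0.83 in STK19_KO2.

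For ATRi against DMSO at 20 h the CSB_KO response minus the WT response was -0.33 in FOS, -0.49 in FOSB, -0.92 in FOSL1, -0.64 in FOSL2, -0.25 in JUN, -0.91 in JUNB and -0.87 in JUND. For the mean of the STK19 lines it was 0.73 in FOS, -0.45 in FOSL2 and -0.56 in JUND. The comparisons share the WT libraries, and the CSB_KO comparisons at 20 h share the CSB_KO libraries in DMSO, with opposite sign.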

How the results depend on the processing

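Of 273 results for single genes and comparisons, DESeq2 left 271 on the same side of the threshold in the same direction, the size factors of DESeq2 270, no filter on low counts 269, upper quartile factors 268, a fit to the lines compared only 259 and scaling by library size 259. Scaling by library size moved the median of all genes by -0.371 to 0.262 on the log2 scale, upper quartile factors by -0.111 to 0.156 and the size factors of DESeq2 by -0.024 to 0.083. Leaving out each library in turn ended 58 calls and added 10. Leaving out each replicate number in all groups gave 4 to 13 calls at 4 h in DMSO against 3 h (11 as reported), 0 to 9 for ATRi at 4 h (6 as reported), and 0 to 2 for the difference from WT in the ATRi effect at 4 h (0 as reported), where leaving out the 5 libraries that stand apart, chosen after seeing the data, gave 2. Leaving out those 5 libraries reversed JUND at 20 h in DMSO against 0 h in WT, from 0.01 to -0.19. The cause was not tested. The FOS genes' share of the family was 7.19% in WT at 0 h and 12.6% in CSB_KO at 20 h in DMSO. It was 8.68% and 16.3% without length scaling, 8.42% and 16.0% with the longest transcript, and 9.77% and 17.9% with the span of JUN in the deposited table, an alternative added after seeing the data. The share moves because the lengths differ.

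The replicate block added 9 calls and ended none. It gave 1 call for the difference from WT in the ATRi effect at 4 h (0 as reported). Among comparisons whose groups all pair by number it changed the call of JUND in STK19_KO2 at 4 h against 3 h and no other. The gains where numbers pair in WT only, or in no group, were JUN at 20 h in DMSO against 0 h in WT (adjusted p = 0.0318), JUN and JUND with ATRi at 4 h in WT (0.0398 and 0.0405), JUND at 3 h in STK19_KO1 (0.0469), JUNB with ATRi at 20 h in CSB_KO (-0.25, 0.0278), and, as differences between CSB_KO and WT, FOSL1 at 3 h (0.0496), JUND at 20 h in DMSO (0.0185) and JUND with ATRi at 4 h (0.0143). Every library correlated best with its own number in 7 of 31 pairs of groups. These included CSB_KO at 3 h with 0 h, and not WT at 3 h with 0 h.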
